A study of Mus musculus with 19 samples.

Results

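Transcript levels of 9 genes of the SLAM pathway were followed across sorted mouse CD4+ T cells: the receptor genes Slamf1, Slamf6, Slamf7, Cd84, Ly9, Cd48 and Cd244, the adaptor gene Sh2d1a, which encodes SAP, and the kinase gene Fyn. The members were chosen by name as a receptor family with its adaptor and kinase, among 18193 genes measured on the arrays, and each gene was represented by its brightest probe set, by the mean of the 19 arrays, among those annotated with only that symbol. Cd244 is annotated on the arrays under the symbol Cd244a. A gene was kept for tests if its probe set reached a log2 value of 4 on at least 2 arrays; 7 of the 9 members and 9928 of all genes did, and Slamf7 and Cd244 did not.

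The arrays compare follicular helper T (Tfh) cells, which carry much CXCR5 and PD-1 on their surface, with other CD4+ cells. Per the labels, OT-II T cells of genotype Bcl6yfp/+, which recognise an ovalbumin peptide and in which yellow fluorescent protein (YFP) reports BCL6, were given to mice that were then injected under the skin with NP-OVA (ovalbumin carrying a hapten) mixed with complete Freund's adjuvant, CFA. The groups from draining lymph nodes were CXCR5hi PD-1hi YFP-positive cells (n = 4, with 3 arrays from day 7 and 1 from day 10), CXCR5hi PD-1hi YFP-negative cells (n = 4, with 2 arrays from each day), CXCR5lo PD-1lo cells (n = 3, day 7), and CXCR5hi PD-1hi cells sorted without regard to YFP from Bcl6yfp/+ (n = 3, day 7) and Bcl6+/+ donors (n = 3, with 1 array from day 7 and 2 from day 10). Naive CD4+ CD44lo CD62Lhi cells (n = 2) were spleen cells of mice that had not been immunized. The strain is C57BL/6J throughout, and the transferred cells share the OT-II receptor. The protocol text is the same for all samples, so it may not describe the naive cells or the Bcl6+/+ cells, which lack the reporter allele. A heterozygous reporter and YFP level are indirect readouts of BCL6.

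SLAM receptors are immunoglobulin-like molecules of blood cells, most of which bind a molecule of their own kind on a neighbouring cell, while CD48 and CD244 bind each other. Most, but not CD48, have a tail with tyrosine motifs, and in many of them these bind SAP, a small protein made of little more than an SH2 domain. SAP in turn brings in the Src family kinase FYN. Without SAP the same motifs can recruit phosphatases. In mice, CD4+ T cells without SAP make short-lived contacts with B cells and support germinal centres poorly, and the human gene is mutated in X-linked lymphoproliferative disease.

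The values are log2 expression values made by the authors with GCRMA, on which a value near 2 is the floor. The 19 columns do not share 1 distribution: they fall into 7 sets whose arrays have nearly the same sorted values and are taken here as normalized together. Sets 1, 2 and 3 each hold 1 array of YFP-positive, of YFP-negative and of CXCR5lo PD-1lo cells with that replicate number, set 4 holds YFP-positive 4, YFP-negative 4 and naive 1, set 5 holds Bcl6yfp/+ 1 and naive 2, set 6 holds Bcl6yfp/+ and Bcl6+/+ 2 and 3, and set 7 holds Bcl6+/+ 1. All differences are therefore given without a block and, where it matters, with the set as a block in the fit. With that block, only set 4 joins the YFP-positive and YFP-negative groups to naive cells, through naive 1. CXCR5lo PD-1lo cells are joined to naive cells only by way of those groups. Only set 5 joins the Bcl6 genotype groups to naive cells, through Bcl6yfp/+ 1 and naive 2, so that comparison rests on 1 array a side. Each comparison with naive cells then rests on 1 naive array, and its SE and p-value reflect the spread of other arrays. Without a block the median of all genes lay 0.38 to 0.50 log2 above naive in the 4 comparisons with naive cells, and -0.26 log2 from Bcl6+/+ in the Bcl6yfp/+ comparison; with the set as a block these medians were 0 to 0.03. The 6 CD4 T cell genes checked averaged 13.64 to 14.53 on every array. The Tfh genes Cxcr5, Pdcd1, Bcl6, Icos, Il21 and Il4 averaged 12.88 to 14.06 on the arrays of the CXCR5hi PD-1hi groups, 9.70 to 10.91 in CXCR5lo PD-1lo cells and 5.96 to 6.14 in naive cells. The Y-linked gene Eif2s3y was at 12.89 to 13.84 on 10 arrays (YFP-positive 4, YFP-negative 1 and 4, naive 2 and every Bcl6yfp/+ and Bcl6+/+ array) and at 2.15 to 2.40 on the other 9, where X-linked Xist was at 13.01 to 14.07; this check was chosen after its values were seen. Donor sex is therefore mixed within some groups, and Sh2d1a lies on the X chromosome. Nothing in the labels ties the arrays to separate animals; the p-values therefore reflect only how far these samples spread, which may be technical. Fewer cells of a type and less RNA per cell cannot be told apart in such sorted pools. All adjusted p-values come from limma fitted across all 9928 genes.

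**Figure D1:**
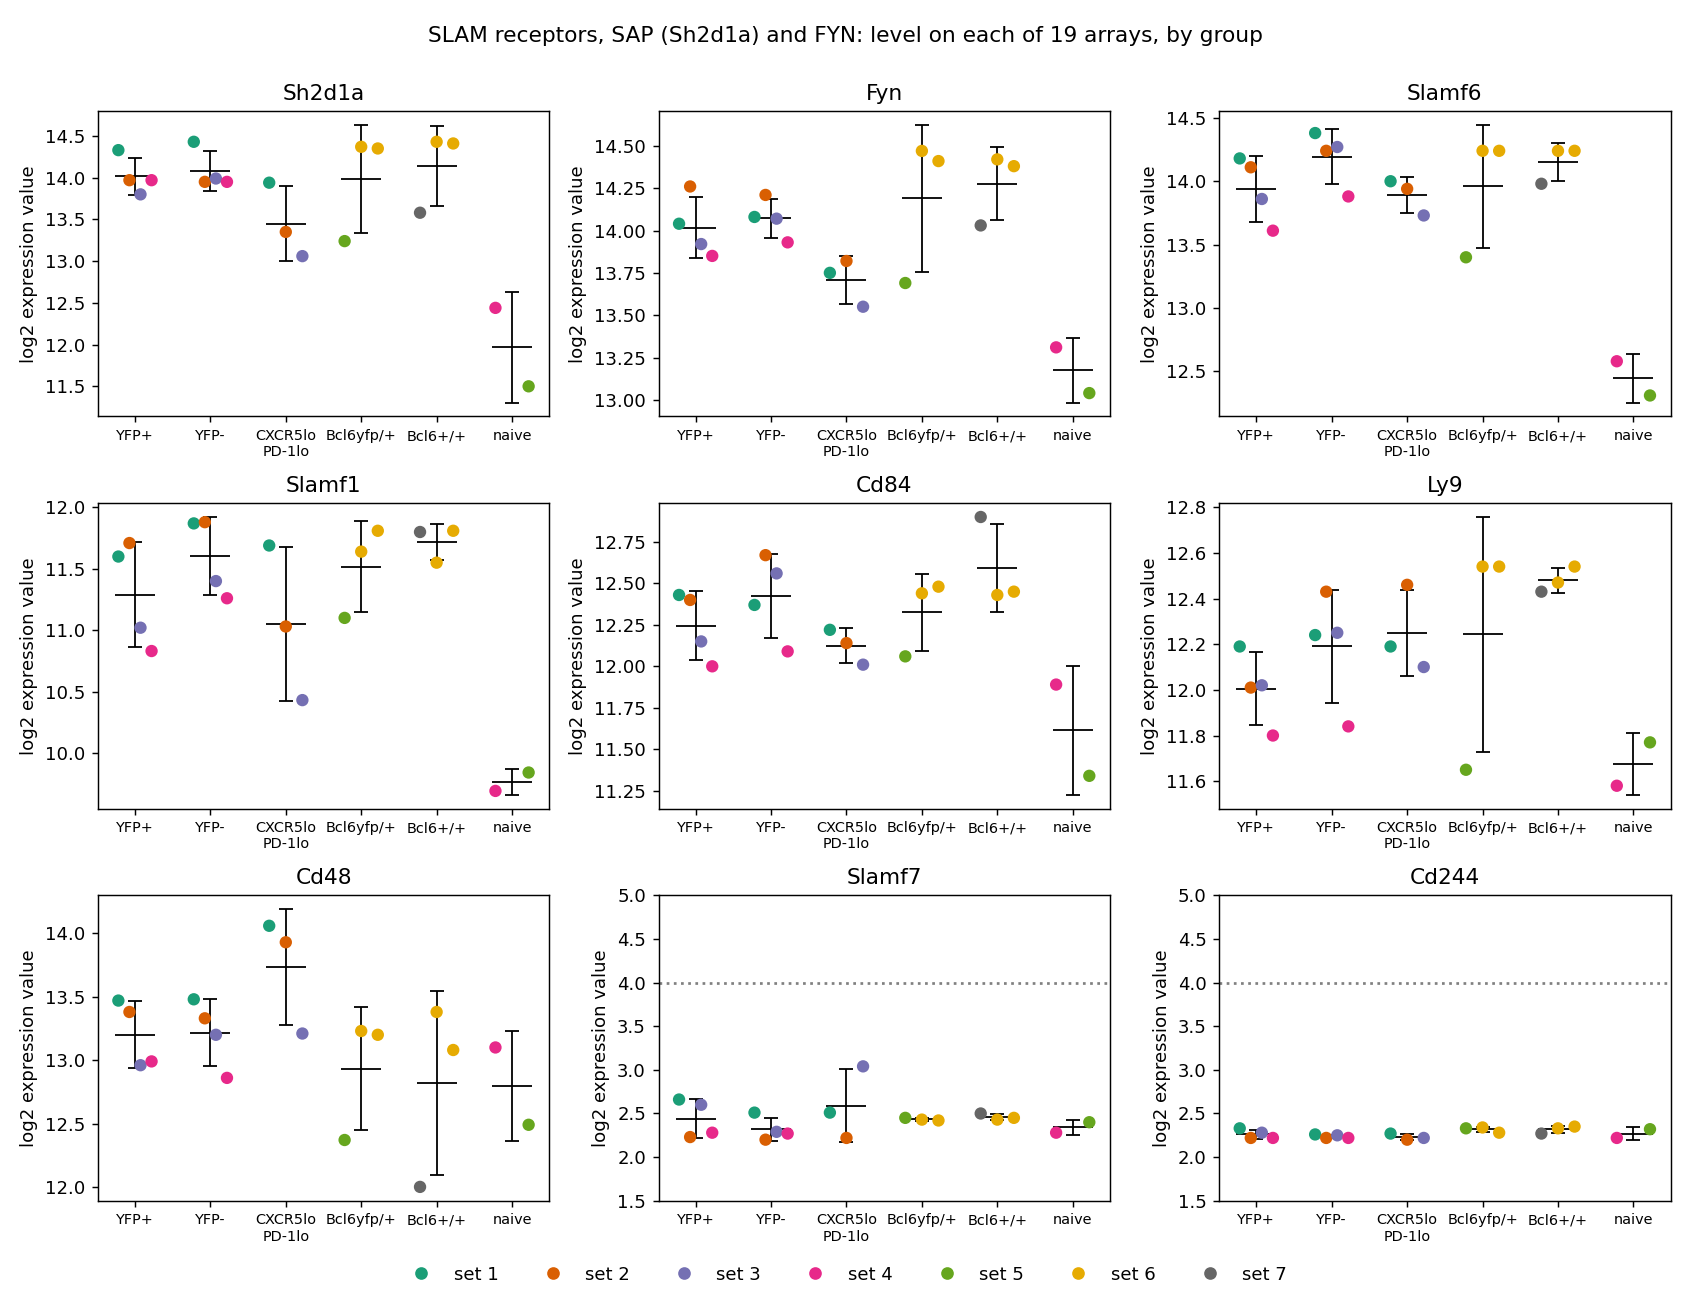
Log2 expression value (vertical axis) of each of the 9 members on every array, by group; points are arrays coloured by normalization set, the wide bar is the group mean and the whisker 1 SD, and each panel has its own vertical range. Both naive arrays lie below all other arrays for Sh2d1a, Fyn, Slamf6, Slamf1 and Cd84, and Slamf7 and Cd244 stay under the filter value of 4, the dotted line, on every array.

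The 7 receptor genes are neighbours on chromosome 1, in the order Cd244a, Ly9, Slamf7, Cd48, Slamf1, Cd84 and Slamf6 by the RefSeq gene table, with 1 other entry annotated as protein-coding among them, whereas Sh2d1a lies on chromosome X and Fyn on chromosome 10. The 250 bases before the annotated start are shown for Slamf6, Slamf1 and their neighbour Cd48 (RefSeq, GRCm38.p6). Without a block, Slamf6 and Slamf1 passed the test in every comparison with naive cells and Cd48 in none. The Cd48 differences from naive were nevertheless above 0, at 0.09 to 0.94. Capitals mark every match, on either strand, to the motifs AGGAAG (ETS core), CTTTGA (TCF/LEF core), TTCCTNGAA (BCL6 core) and CANNTG (E-box).
Slamf6, chr1:171917212-171917461, + strand: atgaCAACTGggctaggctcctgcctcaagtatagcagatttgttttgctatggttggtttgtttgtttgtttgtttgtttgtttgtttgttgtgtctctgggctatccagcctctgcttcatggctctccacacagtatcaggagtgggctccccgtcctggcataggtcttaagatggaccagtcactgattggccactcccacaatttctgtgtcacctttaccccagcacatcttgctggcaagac
Slamf1, chr1:171766882-171767131, + strand: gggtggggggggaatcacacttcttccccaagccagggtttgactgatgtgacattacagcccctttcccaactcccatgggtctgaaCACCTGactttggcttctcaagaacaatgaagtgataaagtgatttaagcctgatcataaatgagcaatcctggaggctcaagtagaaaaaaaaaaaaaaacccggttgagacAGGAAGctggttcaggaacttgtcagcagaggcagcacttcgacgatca
Cd48, chr1:171681742-171681991, + strand: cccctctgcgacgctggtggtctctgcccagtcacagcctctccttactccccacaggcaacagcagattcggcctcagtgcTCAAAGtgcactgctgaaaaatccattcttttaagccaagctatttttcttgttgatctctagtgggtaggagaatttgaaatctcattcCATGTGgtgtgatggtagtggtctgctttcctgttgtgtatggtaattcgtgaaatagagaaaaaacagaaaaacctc

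Each of the 3 windows held 1 E-box, a motif found in 66.2% of 32851 RefSeq windows of this length. Slamf1 also held 1 ETS core, found in 29.5% of windows, and Cd48 held 1 TCF/LEF core, found in 13.8%. No BCL6 core was found in any of the 3, against 1.31% of all windows. None of the matches overlap, and a match is only a run of letters.

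Compared with naive cells, the SAP gene and the receptor genes Slamf6 and Slamf1 were the members that rose in all 4 comparisons, Fyn rose in the Tfh groups, Cd84 and Ly9 rose in fewer, and Cd48 did not pass the test in any. For Sh2d1a, Fyn, Slamf6, Slamf1 and Cd84, 17 of the 17 arrays of the other groups lay above both naive arrays, as they did for 17.3% of all genes; for Ly9 it was 16 and for Cd48 11. The naive arrays are shared by the 4 comparisons and are only 2, so the comparisons are not independent. Naive cells also came from the spleen of mice that were not immunized, and the other groups from draining lymph nodes. Tissue, immunization and cell state cannot be told apart in these comparisons.

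Among the chosen probe sets, that of Sh2d1a had the largest difference from naive of the members. Its levels were 14.33, 13.97, 13.80 and 13.97 in YFP-positive cells, 14.43, 13.95, 13.99 and 13.95 in YFP-negative cells, 13.94, 13.35 and 13.06 in CXCR5lo PD-1lo cells, 13.24, 14.37 and 14.35 in Bcl6yfp/+ cells, 13.58, 14.43 and 14.41 in Bcl6+/+ cells, and 12.44 and 11.50 in naive cells. No group overlapped with naive, although the naive arrays differed more from each other than the lowest CXCR5lo PD-1lo array did from the higher of them. The log2 difference from naive was 2.05 (SE 0.37, adjusted p = 0.00059) in YFP-positive cells, a 4.13-fold higher level. It was 2.11 (SE 0.37, adjusted p = 0.00057) in YFP-negative cells and 2.09 (SE 0.35, adjusted p = 0.00029) in the mean of both Bcl6 genotypes. In CXCR5lo PD-1lo cells it was 1.48 (SE 0.39, adjusted p = 0.022). Relative to the median of all genes these differences were 1.65, 1.73, 1.59 and 1.02, and with the set as a block they were 1.49, 1.55, 1.77 and 0.89. All still passed the test, but with the block each rests on 1 naive array. That for the Bcl6 genotypes rests on Bcl6yfp/+ 1 against naive 2. The last is indirect, as CXCR5lo PD-1lo and naive cells share no set. Without naive 2, the array that carries Y-linked transcripts, the difference in CXCR5lo PD-1lo cells was 1.01 with an adjusted p of 0.30, and without naive 1 it was 1.94 with an adjusted p of 0.021.

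Slamf6, which encodes the receptor also called Ly108, was at 14.18, 14.11, 13.86 and 13.61 in YFP-positive cells, 14.38, 14.24, 14.27 and 13.88 in YFP-negative cells, 14.00, 13.94 and 13.73 in CXCR5lo PD-1lo cells, 13.40, 14.24 and 14.24 in Bcl6yfp/+ cells, 13.98, 14.24 and 14.24 in Bcl6+/+ cells, and 12.58 and 12.31 in naive cells. The lowest of the other arrays, Bcl6yfp/+ 1, was still above both naive arrays. The difference from naive was 1.49 (SE 0.26, adjusted p = 0.00038) in YFP-positive cells and 1.75 (SE 0.26, adjusted p = 1e-04) in YFP-negative cells. It was 1.44 (SE 0.27, adjusted p = 0.002) in CXCR5lo PD-1lo cells and 1.61 (SE 0.24, adjusted p = 0.00011) in the mean of both Bcl6 genotypes. Slamf6 kept its call in every comparison with naive when any 1 array was left out and with the set as a block. With the block each difference rests on 1 naive array, and they were 1.04, 1.29, 0.88 and 1.09 in the same order of groups. The last, for Bcl6 genotype cells, rests on Bcl6yfp/+ 1 against naive 2. Of the other 2 Slamf6 probe sets 1 was higher by 1.47 to 2.27 and passed the test in each comparison, and 1 was higher by 0.56 to 1.21 and did not. The former exceeded Sh2d1a in YFP-negative (2.27) and Bcl6 genotype cells (2.14), and not in YFP-positive cells (1.47) or CXCR5lo PD-1lo cells (1.48).

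Slamf1, the founding member of the family, was at 11.60, 11.71, 11.02 and 10.83 in YFP-positive cells, 11.87, 11.88, 11.40 and 11.26 in YFP-negative cells, 11.69, 11.03 and 10.43 in CXCR5lo PD-1lo cells, 11.10, 11.64 and 11.81 in Bcl6yfp/+ cells, 11.80, 11.55 and 11.81 in Bcl6+/+ cells, and 9.69 and 9.84 in naive cells. The CXCR5lo PD-1lo arrays spread widest, and their lowest was still above both naive arrays. The difference from naive was 1.53 (SE 0.34, adjusted p = 0.003) in YFP-positive, 1.84 (SE 0.34, adjusted p = 0.00085) in YFP-negative and 1.86 (SE 0.32, adjusted p = 0.00038) in Bcl6 genotype cells. In CXCR5lo PD-1lo cells it was 1.29 (SE 0.36, adjusted p = 0.028), a call that was lost with the set as a block (0.83, adjusted p = 0.060). It was also lost in 4 of the 5 fits that left out 1 array. Its other 2 probe sets were higher than naive by 1.16 to 2.39 and 1.52 to 1.85.

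Fyn was at 14.04, 14.26, 13.92 and 13.85 in YFP-positive cells, 14.08, 14.21, 14.07 and 13.93 in YFP-negative cells, 13.75, 13.82 and 13.55 in CXCR5lo PD-1lo cells, 13.69, 14.47 and 14.41 in Bcl6yfp/+ cells, 14.03, 14.42 and 14.38 in Bcl6+/+ cells, and 13.31 and 13.04 in naive cells. It rose over naive by 0.84 (SE 0.23, adjusted p = 0.013) in YFP-positive, 0.90 (SE 0.23, adjusted p = 0.011) in YFP-negative and 1.06 (SE 0.22, adjusted p = 0.0018) in Bcl6 genotype cells. In CXCR5lo PD-1lo cells the difference was 0.54 (SE 0.25, adjusted p = 0.16), with an interval from 0.01 to 1.06. Both calls in reporter-sorted Tfh cells were lost without naive 2 (adjusted p = 0.15 each). Its second probe set was higher than naive in all 4 comparisons, by 0.92 to 1.46, and passed the test in each.

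Cd84, a homophilic receptor that in mice supports lasting contact of T with B cells, lay at 12.00 to 12.43 in YFP-positive, 12.09 to 12.67 in YFP-negative, 12.01 to 12.22 in CXCR5lo PD-1lo, 12.06 to 12.48 in Bcl6yfp/+ and 12.43 to 12.90 in Bcl6+/+ cells, against 11.89 and 11.34 in naive cells. It rose by 0.81 (SE 0.24, adjusted p = 0.025) in YFP-negative and 0.84 (SE 0.23, adjusted p = 0.0099) in Bcl6 genotype cells. It did not pass in YFP-positive cells (0.63, adjusted p = 0.061) or CXCR5lo PD-1lo cells (0.51, adjusted p = 0.19). Without naive 2, which leaves 1 naive array, the YFP-negative and Bcl6 genotype differences were 0.53 and 0.57. The YFP-negative call was kept in 3 of 6 fits that left out 1 array, and the Bcl6 genotype call in 7 of 8. With the set as a block only the Bcl6 genotype difference was past the test (0.70), and it rests on Bcl6yfp/+ 1 against naive 2. Within set 4 the differences were 0.11 for YFP-positive and 0.20 for YFP-negative cells. A second Cd84 probe set gave -1.51 (SE 1.07) for Bcl6 genotype cells against naive. It gave -0.03 (SE 1.13) for YFP-positive, 0.21 (SE 1.13) for YFP-negative and 0.36 (SE 1.19) for CXCR5lo PD-1lo cells. None passed, and the SE is too large to tell whether the probe sets differ.

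Ly9, another homophilic receptor of the family, lay between 11.80 and 12.46 in YFP-positive, YFP-negative or CXCR5lo PD-1lo cells and between 11.65 and 12.54 in the Bcl6 genotype groups, against 11.58 and 11.77 in naive cells. It passed the test only in Bcl6 genotype cells (0.69, SE 0.24, adjusted p = 0.036), where Bcl6yfp/+ 1 overlapped with naive, and the sign turned with the set as a block (-0.13, adjusted p = 0.68). Cd48, which encodes a receptor anchored in the membrane by a lipid, was at 13.47, 13.38, 12.96 and 12.99 in YFP-positive cells, 13.48, 13.33, 13.20 and 12.86 in YFP-negative cells, 14.06, 13.93 and 13.21 in CXCR5lo PD-1lo cells, 12.37, 13.23 and 13.20 in Bcl6yfp/+ cells, 12.00, 13.38 and 13.08 in Bcl6+/+ cells, and 13.10 and 12.49 in naive cells. Only the CXCR5lo PD-1lo arrays all lay above both naive arrays. Cd48 differed from naive by 0.41 (adjusted p = 0.44) in YFP-positive, 0.42 (adjusted p = 0.46) in YFP-negative, 0.94 (adjusted p = 0.13) in CXCR5lo PD-1lo and 0.09 (adjusted p = 0.87) in Bcl6 genotype cells.

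In counts, 4 of the 7 members tested rose in YFP-positive cells against naive, where 22.4% of all genes rose and 28.8% were called in either direction. In YFP-negative cells it was 5, with 16.5% of all genes rising and 21.1% called. In CXCR5lo PD-1lo cells it was 3, with 10.3% rising and 11.9% called, and in the mean of both Bcl6 genotypes it was 6, with 28.4% rising and 34.3% called. No member fell. The arrays did not overlap with naive, and were higher, for 6 members in YFP-positive cells (38.3% of all genes), 6 in YFP-negative cells (37% of all genes), 7 in CXCR5lo PD-1lo cells (48% of all genes) and 5 in the Bcl6 genotype cells (25.6% of all genes). By size the members were not extreme: the Sh2d1a difference in YFP-positive cells was matched or exceeded in size by 13.4% of all genes and that of Fyn by 38.7%. With the set as a block 4 members rose in YFP-positive cells (25% of genes rising, 46.9% called) and 4 in YFP-negative cells (22.3% rising, 41.6% called). It was 2 in CXCR5lo PD-1lo cells (13.8% rising, 23.3% called) and 5 in Bcl6 genotype cells (12.1% rising, 24.7% called).

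**Figure D2:**
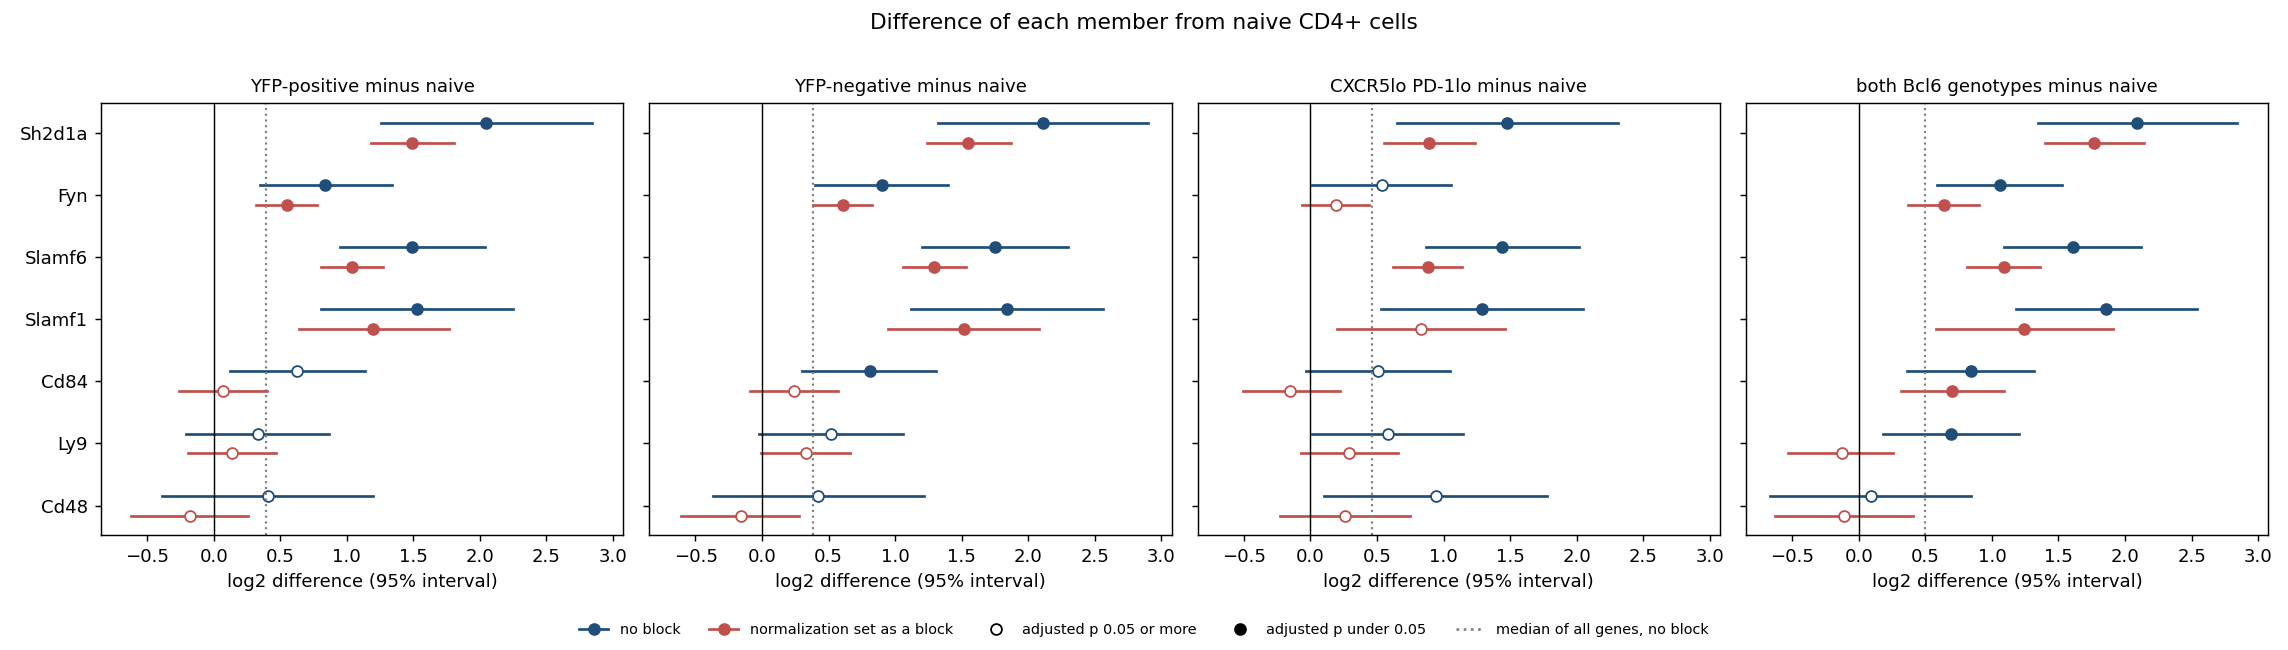
Log2 difference of 7 members from naive cells (horizontal axis, with the 95% interval of the fit) in 4 comparisons, without a block in blue and with the normalization set as block term in red; filled points have an adjusted p under 0.05 and the dotted line is the median of all genes without a block. Sh2d1a and Slamf6 are filled in both fits of every comparison, from 0.88 to 2.11, and Cd48 is open throughout.

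Values within a set need no adjustment between sets. In set 4, YFP-positive 4 and YFP-negative 4 exceeded naive 1 by 1.53 and 1.51 for Sh2d1a, by 1.03 and 1.30 for Slamf6, by 1.14 and 1.58 for Slamf1, and by 0.54 and 0.62 for Fyn. In set 5, Bcl6yfp/+ 1 exceeded naive 2 by 1.74 for Sh2d1a, 1.09 for Slamf6, 1.26 for Slamf1, 0.71 for Cd84 and 0.66 for Fyn. Both of these arrays carry Y-linked transcripts. With the set as a block, the differences and calls of Bcl6 genotype cells against naive rest on this same pair. The set 5 values are therefore not separate support for them. In set 4, YFP-positive 4 and YFP-negative 4 carry Y-linked transcripts and naive 1 does not. Ly9 was at 0.21 for YFP-positive 4 and 0.25 for YFP-negative 4 in set 4, and at -0.12 in set 5. Cd48 was at -0.11 and -0.23 in set 4 and at -0.12 in set 5. CXCR5lo PD-1lo and naive cells share no set.

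Against CXCR5lo PD-1lo cells, the adaptor and the kinase were higher in both reporter-sorted Tfh groups and Cd48 was lower, and no member passed the test without a block. For Sh2d1a and Fyn these differences were smaller than those from naive; for Cd48 they were larger in size, at -0.54 for YFP-positive cells and -0.52 for YFP-negative cells. There 0 of 7 members were called between YFP-positive and CXCR5lo PD-1lo cells, where 10.6% of all genes were, and 0 of 7 between YFP-negative and CXCR5lo PD-1lo cells, where 6.53% were. The groups nevertheless did not overlap for Fyn in either comparison, nor for Sh2d1a in YFP-negative cells, all higher in Tfh cells, as held for 8.75% of genes in the YFP-positive and 7.48% in the YFP-negative comparison. Both comparisons use the same 3 CXCR5lo PD-1lo arrays.

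With the set as a block, arrays are compared within sets 1 to 3, and set 4 adds to the fit through its YFP-positive and YFP-negative arrays. In that fit 3 of 7 members passed between YFP-positive and CXCR5lo PD-1lo cells, where 44.7% of all genes did. Sh2d1a was higher by 0.60 (SE 0.09, adjusted p = 0.00077), Fyn was higher by 0.36 (SE 0.06, adjusted p = 0.002) and Cd48 fell by 0.44 (SE 0.12, adjusted p = 0.017). Slamf1 at 0.37 (adjusted p = 0.079), Cd84 at 0.21 (adjusted p = 0.082), Slamf6 at 0.16 (adjusted p = 0.071) and Ly9 at -0.15 (adjusted p = 0.20) did not pass. With the replicate number as a block, Sh2d1a at 0.58 (adjusted p = 0.033) and Fyn at 0.36 (adjusted p = 0.049) passed, and 28.1% of all genes did. With quantile normalization the same 2 genes passed, where 19.7% of all genes did. The share of members is near the share of all genes in the fits with a block.

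Between YFP-negative and CXCR5lo PD-1lo cells, 6 of 7 members passed with the set as a block, where 30.5% of all genes did. Sh2d1a was higher by 0.66 (SE 0.09, adjusted p = 0.00065), Slamf1 by 0.69 (SE 0.15, adjusted p = 0.010), Fyn by 0.42 (SE 0.06, adjusted p = 0.0013), Slamf6 by 0.41 (SE 0.06, adjusted p = 0.0015) and Cd84 by 0.39 (SE 0.09, adjusted p = 0.011). Cd48 fell by 0.42 (SE 0.12, adjusted p = 0.027), and Ly9 at 0.03 (adjusted p = 0.84) did not pass. With the replicate number as a block none of the 7 passed, where 5.38% of all genes did, and with quantile normalization 4 passed, where 12.4% did. Other probe sets of these receptor genes differ: without a block, where the chosen probe sets gave 0.55 for Slamf1, 0.31 for Slamf6 and 0.30 for Cd84, the other 2 of Slamf1 gave 0.01 and 0.11, the other 2 of Slamf6 gave 0.79 and -0.41, and the second of Cd84 gave -0.15. The second probe set of Fyn gave 0.54 (chosen 0.36).

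The differences within each set show how far they repeat. Sh2d1a was higher in YFP-positive than in CXCR5lo PD-1lo cells by 0.39, 0.62 and 0.74 in sets 1, 2 and 3, and in YFP-negative than in CXCR5lo PD-1lo cells by 0.48, 0.60 and 0.93. Fyn was higher by 0.29, 0.44 and 0.37 in YFP-positive cells and by 0.33, 0.39 and 0.52 in YFP-negative cells. The sign was the same in all 3 sets for both genes, and the YFP-positive and CXCR5lo PD-1lo arrays of these sets all lack Y-linked transcripts. In set 1, YFP-negative 1 is from day 10 and carries Y-linked transcripts, whereas CXCR5lo PD-1lo 1 is from day 7 and lacks them. Cd48 was lower by the same count of sets, with differences of -0.59, -0.55 and -0.25 in YFP-positive cells and -0.59, -0.60 and -0.01 in YFP-negative cells, so that set 3 shows next to no difference in the second comparison. Slamf1 gave -0.09, 0.68 and 0.59 in YFP-positive cells, and its sign is not the same in all sets.

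**Figure D3:**
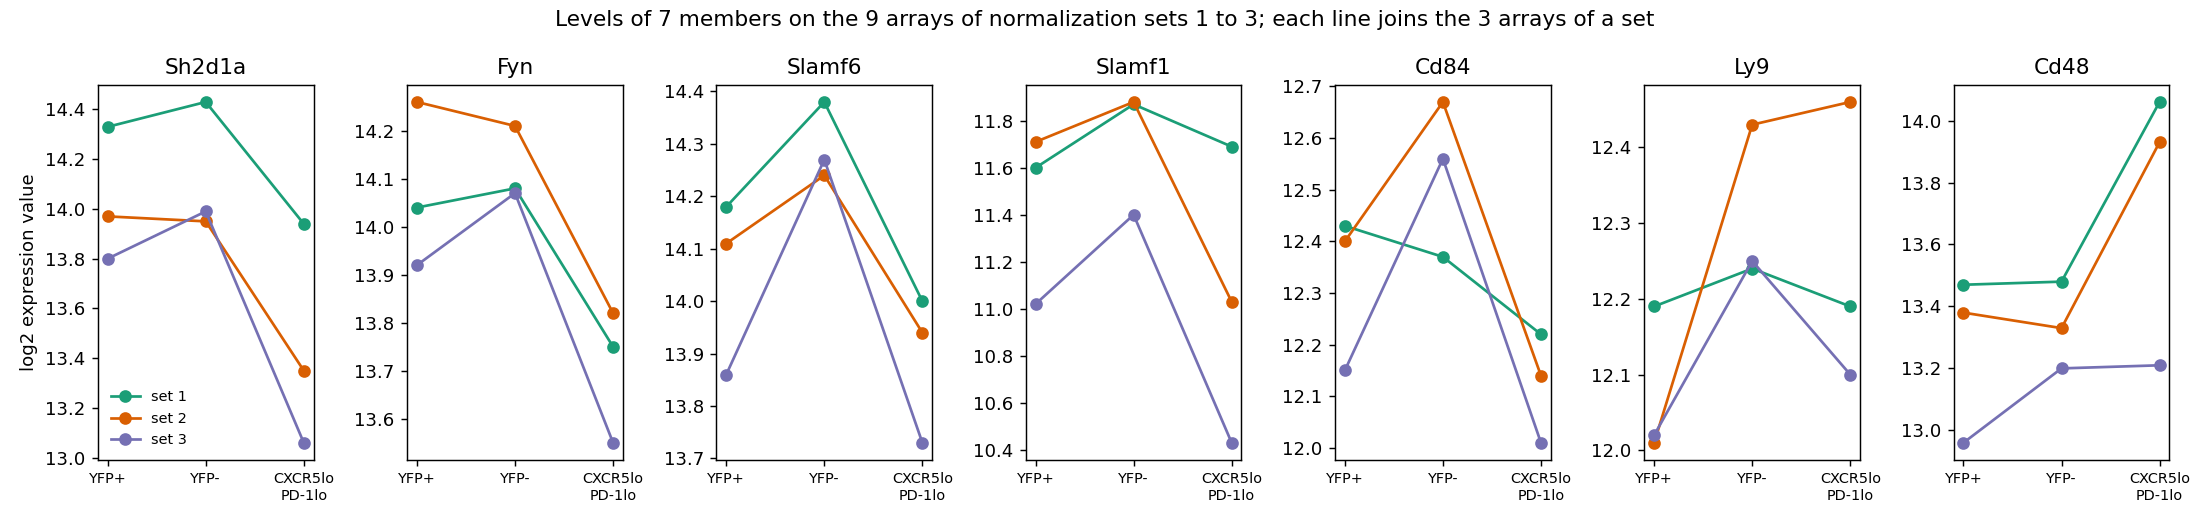
Log2 expression value (vertical axis, a range of its own in each panel) of 7 members in YFP-positive, YFP-negative and then CXCR5lo PD-1lo cells; each line joins the 3 arrays of normalization set 1, 2 or 3. Sh2d1a and Fyn drop to the CXCR5lo PD-1lo point in every set, and Cd48 is highest there in every set, by only 0.01 over YFP-negative cells in set 3.

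Leaving out 1 array at a time with the set as a block, Sh2d1a and Fyn passed in each of the 7 fits of both comparisons, with differences of 0.49 to 0.69 and 0.32 to 0.40 in YFP-positive cells and 0.55 to 0.75 and 0.38 to 0.46 in YFP-negative cells. Slamf6 passed in each of the 7 fits of the YFP-negative comparison, at 0.36 to 0.46. Cd48 passed in 2 of 7 fits of either comparison. These fits were added after the values had been seen.

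Some markers of naive, cytotoxic and B cells differed in both of these comparisons. Of the naive T cell list 5 of 6 genes were measured, and its mean was 6.24 to 8.23 in YFP-positive, 8.97 to 10.29 in YFP-negative and 12.28 to 12.61 in CXCR5lo PD-1lo cells. Ccr7, Il7r, Klf2 and S1pr1 were lower in YFP-positive than in CXCR5lo PD-1lo cells, with differences of -5.68, -6.64, -6.66 and -5.55, and in YFP-negative cells, with -3.94, -3.93, -2.99 and -2.22, and all 4 passed in each. Lef1 passed in neither, at -0.43 (adjusted p = 0.52) for YFP-positive and -0.16 (adjusted p = 0.94) for YFP-negative cells. Of 8 genes on the list for CD8 T and NK cells 7 were measured. Nkg7 was at 1.82 to 2.32 in the reporter-sorted Tfh groups, against 10.44 to 11.31 in CXCR5lo PD-1lo cells, and Klrd1 was at 2.03 to 3.04, against 10.16 to 11.32. The list's mean was 2.74 to 2.87 in YFP-positive, 2.74 to 3.05 in YFP-negative and 5.73 to 6.21 in CXCR5lo PD-1lo cells. Cd8a and Ncr1 were at the floor in CXCR5lo PD-1lo cells, at 2.23 to 2.29 and 2.12 to 2.13. Klrk1 also passed, at a mean of 2.12 in YFP-positive, 2.12 in YFP-negative and 6.02 in CXCR5lo PD-1lo cells, while Cd8b1 did not, at 6.64, 6.76 and 6.74 in the same groups. Klrd1 was at 9.81 to 11.45 in naive cells too. Of 9 measured B cell genes 2 passed the filter: Cd22 averaged 11.19 in YFP-positive, 10.47 in YFP-negative and 3.85 in CXCR5lo PD-1lo cells, and Cd79b 2.40, 2.41 and 5.31. Both passed the test in each comparison, in opposite directions. The other 7 were under log2 4 on every array of these groups. The B cell list mean was 3.18 to 3.31 in YFP-positive, 3.05 to 3.24 in YFP-negative and 2.67 to 2.87 in CXCR5lo PD-1lo cells. The part of these markers in the differences of the members was not tested. Jchain, an antibody-secreting cell gene, was at 2.21 to 8.45 in YFP-positive, 2.20 to 12.42 in YFP-negative and 7.72 to 10.53 in CXCR5lo PD-1lo cells. The other plasma cell genes did not follow it. In the same groups Sdc1 averaged 2.45, 4.28 and 2.35, Xbp1 10.82, 10.94 and 10.65, and Tnfrsf17 2.14, 2.12 and 2.11. No gene of this list passed the test in either comparison, and its part was not tested either.

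**Figure D4:**
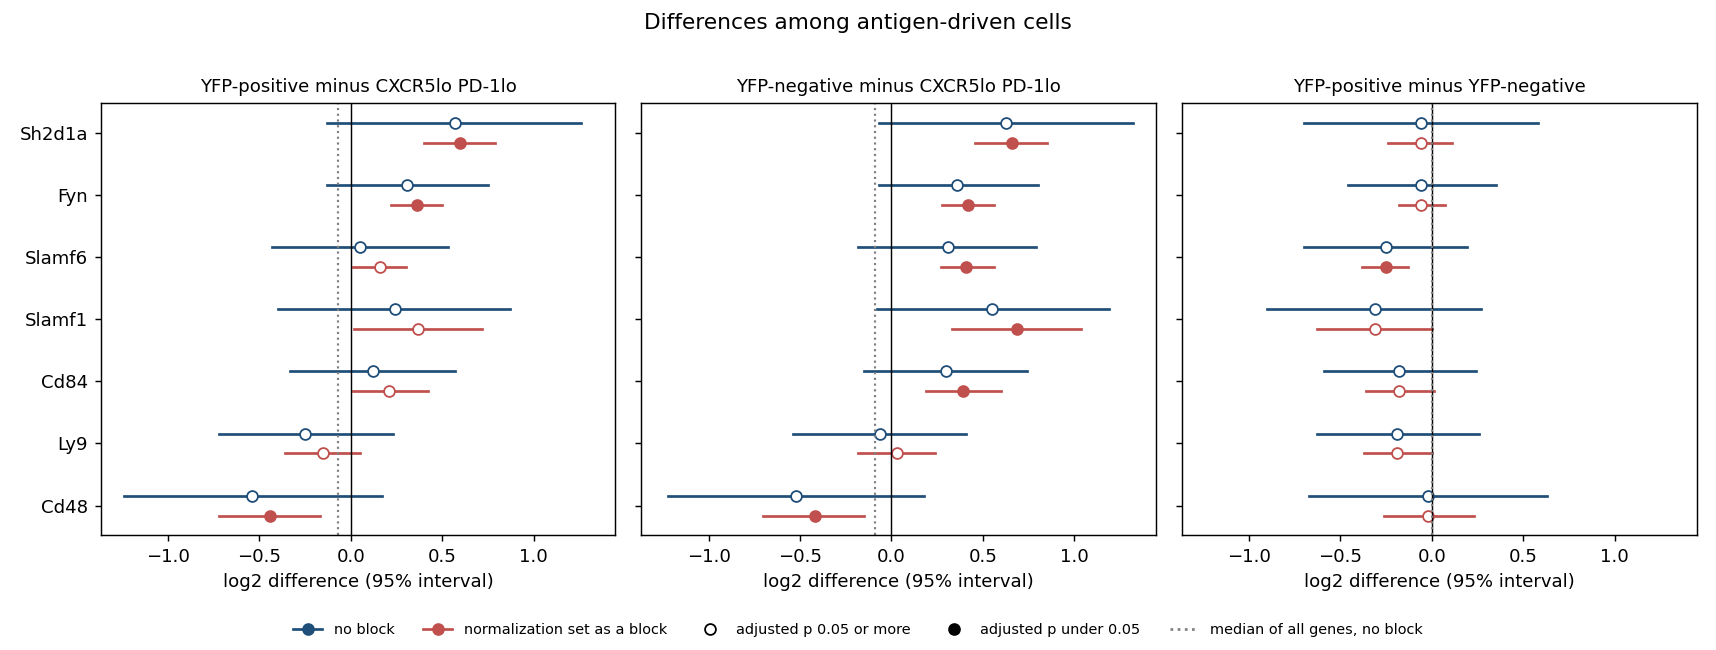
Log2 difference of 7 members (horizontal axis, with the 95% interval of the fit) between YFP-positive and CXCR5lo PD-1lo cells, YFP-negative and CXCR5lo PD-1lo cells, and YFP-positive and YFP-negative cells, without a block in blue and with the normalization set as block term in red; filled points have an adjusted p under 0.05. All blue points are open, and the red intervals are narrower, with Sh2d1a at 0.60 and 0.66 and Cd48 at -0.44 and -0.42 in the first and the second panel.

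Between YFP-positive and YFP-negative Tfh cells, 0 of 7 members were called, where 0.121% of all genes were; without YFP-positive 4 it was still 0 members, and 3.09% of all genes. The differences without a block ran from -0.31 for Slamf1 (SE 0.28, interval -0.90 to 0.27) to -0.02 for Cd48 (SE 0.31, interval -0.67 to 0.63). The 2 groups overlapped for every member, against 3.89% of all genes without overlap. Slamf6 lay at -0.25 (SE 0.21), and within sets 1, 2, 3 and 4 it was at -0.20, -0.14, -0.41 and -0.27. With the set as a block it was the 1 member called (-0.25, SE 0.06, adjusted p = 0.026), where 15.6% of all genes were, and it stayed called in 2 of 8 fits that left out 1 array. Slamf1 was lower in YFP-positive cells in all 4 sets, at -0.17 to -0.43, and did not pass with the set as a block (adjusted p = 0.14). In the same fit Sh2d1a was at -0.06 (SE 0.08, interval -0.24 to 0.11) and Fyn at -0.06 (SE 0.06, interval -0.18 to 0.07), and neither passed. With the replicate number as a block 0 members passed, where 0.665% of all genes did. Other probe sets, without a block, gave -0.02 and 0.04 for Slamf1 and -0.81 and -0.25 for Slamf6, and with the mean of all probe sets Slamf1 was at -0.10 and Slamf6 at -0.44, none of which passed. The naive T cell genes Klf2 (-3.67, adjusted p = 0.0019) and S1pr1 (-3.33, adjusted p = 0.012) fell in YFP-positive cells. Il7r (-2.72, adjusted p = 0.14), Ccr7 (-1.74, adjusted p = 0.80) and Lef1 (-0.27) did not pass. The part of these genes in the differences of the members was not tested. The groups are unbalanced in day and donor sex: YFP-positive 1 is from day 7 and lacks Y-linked transcripts, and YFP-negative 1 is from day 10 and carries them.

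Between Bcl6yfp/+ and Bcl6+/+ Tfh cells 0 of 7 members were called by limma, as were 0% of all genes; 287 genes had an unadjusted p under 0.05. The differences without a block ran from -0.27 for Cd84 (SE 0.23) to 0.11 for Cd48 (SE 0.36). The 2 groups overlapped for every member, against 4.58% of all genes without overlap. With the set as a block 0 members were called, where 0.0403% of all genes were, and with the replicate number as a block 0 members and 0% of genes were. Within set 6, which holds 2 arrays of each genotype, the members differed by -0.06 for Sh2d1a to 0.04 for Slamf1 and Fyn. The genotypes are unbalanced in day, also within set 6. Every Bcl6yfp/+ array is from day 7, and Bcl6+/+ 1 and 2 are from day 10. Bcl6yfp/+ 1 was the lowest array outside the naive group for Slamf6, at 13.40, and for Ly9, at 11.65, and its Tfh list mean of 12.88 was the lowest of the CXCR5hi PD-1hi arrays. Between day 10 and day 7, estimated inside the 3 groups that hold both days, 0 of 7 members were called, where 0.232% of all genes were, and the differences ran from -0.26 for Slamf1 (SE 0.25) to -0.04 for Sh2d1a (SE 0.28). Day moves with donor sex in the reporter-sorted groups and cannot be told apart from it there.

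Slamf7, a receptor known from NK cells and plasma cells, was at 2.23 to 2.66 in YFP-positive, 2.20 to 2.51 in YFP-negative, 2.22 to 3.04 in CXCR5lo PD-1lo, 2.42 to 2.45 in Bcl6yfp/+, 2.43 to 2.50 in Bcl6+/+ and 2.28 to 2.40 in naive cells. Cd244, the receptor for CD48 on NK and some CD8+ T cells, was at 2.20 to 2.35 on every array, and its other probe set averaged 2.22. Both are at the floor, where values have no order, also in CXCR5lo PD-1lo cells with their Nkg7 and Klrd1 signal. Of the other SLAM and SAP family genes looked for, 2 of 4 had a probe set of their own, Slamf8 and Slamf9, and both stayed at 1.98 to 2.19.

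Ordered by mean level, neighbouring groups mostly overlapped. For Sh2d1a the means were 14.14 in Bcl6+/+, 14.08 in YFP-negative, 14.02 in YFP-positive, 13.99 in Bcl6yfp/+, 13.45 in CXCR5lo PD-1lo and 11.97 in naive cells, and only the last step separated neighbours without overlap. Slamf1 (11.72 in Bcl6+/+ to 9.76 in naive cells), Slamf6 (14.19 in YFP-negative to 12.45 in naive cells) and Cd84 (12.59 in Bcl6+/+ to 11.62 in naive cells) also had CXCR5lo PD-1lo cells next to last and naive cells last, separated only at that step. For Fyn the step between YFP-positive (14.02 ± 0.18, SD, n = 4) and CXCR5lo PD-1lo cells (13.71 ± 0.14, SD, n = 3) separated neighbours as well. Cd48 had its highest mean in CXCR5lo PD-1lo cells (13.74 ± 0.46, SD, n = 3) and each neighbour in its order overlapped. Ly9 was second highest in CXCR5lo PD-1lo cells (12.25) after Bcl6+/+ (12.48).

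Across the 19 arrays, which share groups and normalization sets, Slamf6 and Sh2d1a had a Pearson r of 0.927, Slamf1 and Slamf6 of 0.911, and Sh2d1a and Fyn of 0.908, given as a description. Cd48 had an r of 0.0957 to 0.415 with the other 6. The 2 genes most like each member over the same arrays were Spata13 (0.984) and Mettl7a2 (0.979) for Sh2d1a, Rab10 (0.980) and Dennd2d (0.971) for Slamf6, and Acot11 (0.959) and Ryr1 (0.953) for Slamf1. They were Ei24 (0.974) and Prkca (0.966) for Fyn, Atp2b1 (0.948) and 1810014B01Rik (0.933) for Cd48, Ggps1 (0.935) and Flad1 (0.933) for Ly9, and Eci2 (0.923) and Traf5 (0.912) for Cd84.

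Of 21 genes reported to act with SLAM receptors, SAP or FYN, 18 were measured and all 18 passed the filter. Between YFP-positive and CXCR5lo PD-1lo cells 2 rose and 1 fell, where 10.6% of all genes were called (5.17% higher and 5.39% lower), with a list median of -0.14 against -0.07 for all genes. Ptpn11, which encodes the phosphatase SHP-2 that can bind SLAM receptor tails, rose by 1.53 (SE 0.24, adjusted p = 0.00042), and Dok2, an adaptor that restrains T cell receptor signals, fell by 1.52 (SE 0.30, adjusted p = 0.003). Il4, a Tfh cytokine whose production in mouse T cells involves SLAMF1 and SAP, averaged 13.20 in YFP-positive and 4.03 in CXCR5lo PD-1lo cells, a difference of 9.18 (adjusted p = 4.5e-09) that depends on the floor. The same 3 genes were called between YFP-negative and CXCR5lo PD-1lo cells, at 1.53 for Ptpn11 (adjusted p = 0.00053), -1.13 for Dok2 (adjusted p = 0.033) and 8.90 for Il4 (adjusted p = 6.6e-09). None was called between YFP-positive and YFP-negative cells or between the Bcl6 genotypes.

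Against naive cells 7 of the 18 rose in YFP-positive, 8 in YFP-negative, 5 in CXCR5lo PD-1lo and 9 in Bcl6 genotype cells, and 0 fell, where 22.4%, 16.5%, 10.3% and 28.4% of all genes rose; the list medians were 0.66, 0.75, 0.82 and 0.76, and those of all genes 0.39, 0.38, 0.46 and 0.50. Ptpn11 rose by 2.48 (SE 0.27, adjusted p = 3.6e-06) in YFP-positive and by 0.95 (SE 0.29, adjusted p = 0.043) in CXCR5lo PD-1lo cells. Il4 was listed at a mean of 13.20 in YFP-positive and 2.19, the floor, in naive cells. Gata3, a transcription factor of IL-4 producing T cells, rose by 1.35 (adjusted p = 0.017) in YFP-positive and 2.08 (adjusted p = 0.0033) in CXCR5lo PD-1lo cells. Malt1, a protease of the pathway from the antigen receptor to NF-kB, rose by 1.67 (adjusted p = 0.0039) in YFP-positive cells, and Bcl10, its partner, by 1.15 (adjusted p = 0.014). Csk, the kinase that holds Src family kinases such as FYN inactive, rose by 0.82 (SE 0.24, adjusted p = 0.018) in YFP-positive and 0.98 (SE 0.26, adjusted p = 0.021) in CXCR5lo PD-1lo cells. Of the other Src family kinase genes, 4 of 7 had a probe set of their own: Fgr passed the filter, with levels of 2.41 to 6.28 and no call in any comparison, and Yes1, Blk and Src did not pass.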

How the data were processed

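Expression was measured on 19 Affymetrix arrays, 1 per sorted sample. The deposited table holds log2 levels of 45101 probe sets, which the authors made with GCRMA per the submitters' processing notes, with no version stated in the sources used here. RNA was extracted with TRIzol, or for the Bcl6 genotype groups and naive 2 with TRIzol or a column kit, per the labels' protocols. The number of arrays limits the precision. Probe sets were named from the platform annotation: 1 symbol was given for 34945, more for 932 and no symbol for 9160, besides 64 control probe sets. By Entrez identifier 34741 matched the RefSeq table, and 0 symbols changed.

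Group means of all 19 arrays were fitted with lmFit, contrasts.fit and eBayes of limma 3.58.1 (R 4.3.3), with 1 probe set a gene, the filter given above, and Benjamini-Hochberg adjustment over 9928 genes; genes with an adjusted p under 0.05 were called. SE is the standard error of a difference, SD the standard deviation of a level, and intervals cover 95% by the fit. The day effect was a term added to the groups. Normalization sets were found from sorted values: columns within 0.06 log2 on average formed a set (largest difference inside a set 0.0482, smallest across sets 0.0666). Same-numbered samples deviated together (correlations of deviations from the group means 0.45 to 0.868 for YFP-positive and YFP-negative, 0.391 to 0.684 for YFP-positive and CXCR5lo PD-1lo, 0.267 to 0.387 for YFP-negative and CXCR5lo PD-1lo, and 0.572 to 0.64 for the Bcl6 genotypes). Samples of different number reached at most 0.251, 0.381, 0.388 and 0.555 in the same pairs of groups, so that for YFP-negative and CXCR5lo PD-1lo they overlap. Every same-numbered pair was above 0.1, and the fit with a replicate block was run as an alternative. Same-numbered reporter-sorted and CXCR5lo PD-1lo arrays also share a normalization set, so their correlations cannot show that samples were paired. YFP-positive 1 and YFP-negative 1 differ in day and in Y-linked transcripts. Among Bcl6 genotype arrays, same-numbered pairs of set 6 reached 0.596 and 0.572, and pairs of different number 0.555 and 0.427. The same-numbered pair from different sets reached 0.64. Whether replicate numbers mark paired samples is not known. Other alternatives were the normalization set as a block, quantile normalization, day as an added term, no filter, the mean of a gene's probe sets, only the groups compared, and leaving out each array. The limma fit was tested on simulated data.

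All 9 members are named in every comparison, with the 2 genes most like each in Pearson r and the called genes of fixed partner lists, at most 6 a comparison by size. The members and lists were chosen with earlier results of these data known.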

Additional observations from a re-analysis of the deposited data

Results flagged for a closer look

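Sh2d1a in YFP-negative replicate 1 stood at 14.43, while the other 3 arrays of the group lay between 13.95 and 13.99; the gap was 0.91 of the group's range, above Dixon's critical value for a group of this size. It was the 1 value so marked in 14 tests of a member in a group of 4, and chance marks about 1 in 20. YFP-positive 1, of the same normalization set, was at 14.33, and CXCR5lo PD-1lo 1 at 13.94. On the marked array the plasma cell list mean was 8.09, against 4.47 to 5.02 on the others, Jchain was at 12.42, and the myeloid list mean was 4.84, against 3.49 to 3.84. Their part in the Sh2d1a value was not tested. Without that array and with the set as a block, Sh2d1a still passed between YFP-negative and CXCR5lo PD-1lo cells.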

How the results depend on the processing

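Of 1001 member differences recomputed under an alternative, 839 kept their direction and side of the threshold, 75 passed only under the alternative and 30 no longer passed. The sign turned in 57, of which 55 were called in neither fit, with reported values of at most 0.51 in size. The 2 others were Cd84 in Bcl6 genotype cells against naive with the mean of all probe sets (-0.33) and Ly9 in the same comparison with the set as a block (-0.13). The number of members called moved from 0 to 1 with the set as a block between YFP-positive and YFP-negative cells. Between YFP-positive and CXCR5lo PD-1lo cells it moved from 0 to 3 with the set as a block, to 2 with quantile normalization and to 2 with the replicate block; between YFP-negative and CXCR5lo PD-1lo cells it moved from 0 to 6 with the set as a block and to 4 with quantile normalization, and was 0 with the replicate block. The replicate block changed no other call, with 0 members called between YFP-positive and YFP-negative cells and between the Bcl6 genotypes. With only the groups compared in the fit, 1 member passed between CXCR5lo PD-1lo and naive cells. Without YFP-positive 4, 307 genes were called between YFP-positive and YFP-negative cells, against 12 with all arrays. The cause was not tested in any of these.

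Leaving out 1 array gave 1 to 3 members between CXCR5lo PD-1lo and naive cells (1 without CXCR5lo PD-1lo 1 or naive 2), 3 to 5 against naive in both YFP-positive and YFP-negative cells (3 without naive 2), 4 to 6 for the Bcl6 genotypes against naive, and 0 elsewhere. With the set as a block, in fits added after the data were seen, it gave 2 to 3 between YFP-positive and CXCR5lo PD-1lo cells, 3 to 6 between YFP-negative and CXCR5lo PD-1lo cells and 0 to 1 between YFP-positive and YFP-negative cells. Genes at the GCRMA floor have no measured order, and 2 naive arrays limit all comparisons with naive cells.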
